A study of Sus scrofa with 17 samples.

Results

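Among pigs that had received cord blood cells, 5 right ventricular libraries carry names beginning with M1 and 7 carry names beginning with M8 or M9. These 12 libraries, of 17 in the series, are compared here across all genes with enough counts. The split by name was chosen because these libraries stood apart from each other in an earlier analysis of the same counts. Every difference between the 2 sets of names is therefore a description and carries no test. What the names refer to (a batch, a litter, a harvest time or something else) is stated nowhere in the labels.

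All animals, the controls included, had right ventricular pressure overload, a model in which the ventricle ejects against a raised resistance. The multidose group received umbilical cord blood mononuclear cells more than once, the single dose group received them once, and the vehicle control group received carrier alone. The M1 names are multidose 1, 2, 3 and 4 and single dose 1. The M8 and M9 names are multidose 5, 6 and 7 and single dose 2, 3, 4 and 5, and all 5 vehicle controls also bear M8 or M9 names. Each library is 1 animal. For single libraries, animal age, strain, sex and batch, the doses, the source species of the cells and the harvest times were not used here, since the labels hold none of them. The submitters state that sex, weight and batch were recorded.

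Cardiomyocytes under pressure load are known to raise the natriuretic peptides and a set of Z-disc and intermediate filament proteins, and to move fuel use from fatty acids toward glucose. Collagen-producing fibroblasts, endothelium, nerve-associated Schwann cells and resident leukocytes share the tissue, so a bulk library reports all of them at once. The ventricular identity of the tissue was checked against the cardiomyocyte markers. MYH7, the slow beta myosin heavy chain, measured between 11520 and 28910 CPM (counts scaled to library size with TMM factors) in the 12 libraries, and MYL2, the ventricular regulatory light chain, between 11840 and 22500 CPM.

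The libraries differed in more than their names. Total counts were 21754800 to 24356210 in the 4 M1 libraries without a name suffix, 40969168 in multidose 4, and 40621934 to 53317361 in the M8/M9 libraries. Multidose 4 is the only M1 library whose name ends in _R, and multidose 5 is the only dosed M8/M9 library whose name does not. The summed level of Y-linked genes was 61.1 CPM or more in 3 of 5 M1 libraries and 4 of 7 M8/M9 libraries, and at most 0.132 CPM in the others. Haemoglobin beta (HBB), a red cell transcript, measured 95.0 to 623.9 CPM in M1 and 24.9 to 182.4 CPM in M8/M9. The shares of counts from mitochondrially encoded genes overlapped, at 16.4% to 21.1% in M1 and 15.8% to 23.1% in M8/M9. The part of depth, suffix and blood content in the differences below was not tested beyond the values given beside them, and with 1 M1 library in the single dose group the names are spread unevenly over the dosing groups.

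The first principal component held 30.3% of the variance of log2 CPM in the dosed libraries. Scores ran from -56.6 to -25.7 in M1 and from 13.8 to 49.2 in M8/M9, so the ranges did not meet. Multidose 4, with the depth and the suffix of the M8/M9 libraries, scored -30.8. Multidose 5, with their depth but no suffix, scored 49.2, and it stood alone on the second component, which held 15.5%, at 64.4.

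**Figure D1:**
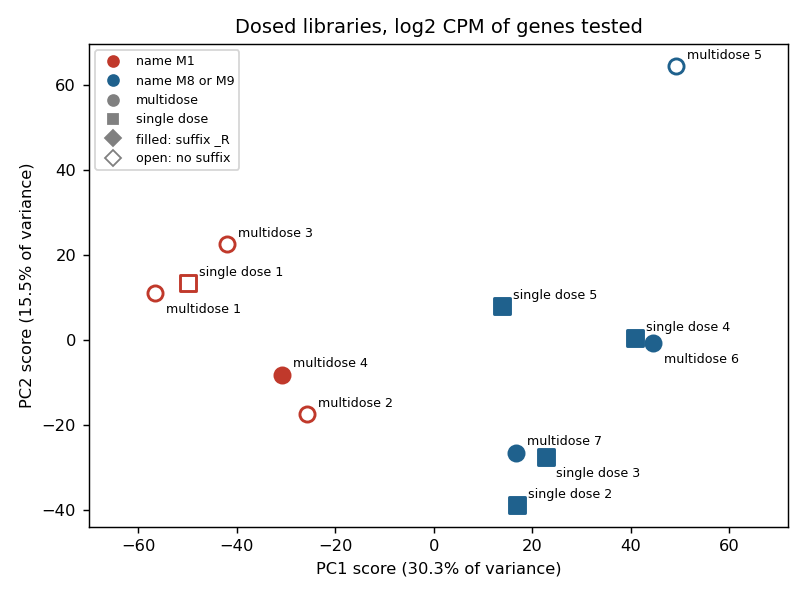
Scores of the 12 dosed libraries on the first and second principal components of log2 CPM, which held 30.3% and 15.5% of the variance. Colour gives the name, shape the dosing group and fill the suffix. The 5 M1 libraries lie at -25.7 or below on the first component and the 7 M8/M9 libraries at 13.8 or above.

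Of 15923 genes tested, 2777 (17.4%) passed an adjusted p of 0.05 for the name in edgeR with the dosing group as a covariate, 1303 (8.18%) higher and 1474 (9.26%) lower in M1. These are the background against which the lists below are read, and because the names were chosen on these data nothing is read from the total itself. The difference exceeded 2-fold in 741 of the 2777, 361 higher and 380 lower. For 674 genes (4.23%) every M1 library was above every M8/M9 library, and for 805 genes (5.06%) every M1 library was below. No gene with a symbol held at least 1 CPM in every library of one name and under 0.1 CPM in every library of the other. The count was 1399 without single dose 1 and 1784 without multidose 6. With 4 M1 and 3 M8/M9 multidose libraries alone it was 723.

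Both natriuretic peptide genes of the ventricle were lower in every M1 library. NPPA (ENSSSCG00000061442, chromosome 6, 71919557 to 71921345, Sscrofa11.1), which encodes atrial natriuretic peptide, measured 87.9, 200.3, 59.6, 177.2 and 101.3 CPM in multidose 1, 2, 3 and 4 and single dose 1. In the M8/M9 libraries it ran from 592.8 to 4412 CPM with a median of 1090, and in the vehicle controls from 811.8 to 4792. No M1 library reached the lowest M8/M9 library, and the log2 difference was -3.86 (SE 0.57), a level 14.5-fold lower. Its neighbour NPPB (ENSSSCG00000003431, chromosome 6, 71930374 to 71931843), the gene of brain natriuretic peptide, measured 84.6, 309.8, 34.5, 339.7 and 11.6 CPM against 664 to 2442 CPM, median 1346. The log2 difference was -3.70 (SE 0.87). M1 libraries spread widely among themselves here, single dose 1 being lowest and multidose 4 highest, without touching the M8/M9 range.

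Of the 18 tested genes of the natriuretic and cardiac stress list, 11 were lower past the threshold and 1 was higher, and 17 had a negative difference. The median was -0.82, against -0.001 over all genes tested. Without single dose 1 the list had 5 lower and 1 higher, and without multidose 6 it had 6 lower and 1 higher, with medians of -0.56 and -0.80. ANKRD2 (ENSSSCG00000010522), a stretch-responsive ankyrin repeat protein of the muscle Z-disc and I-band, measured 4.87, 8.82, 1.21, 10.1 and 1.51 CPM in the M1 libraries and 18.9 to 63.3 CPM, median 25.0, in the others. The ranges did not overlap (log2 difference -2.50, SE 0.62), and a single vehicle control lay within the M1 range at 6.98 CPM. NPR3, the natriuretic peptide clearance receptor, averaged 21.9 against 60.5 CPM (-1.47, SE 0.27). The one member past the threshold in the other direction was CORIN, the protease that activates the atrial peptide, at a mean of 88.4 against 41.6 CPM (1.16, SE 0.24). These 2 were picked after their values were seen. The mean log2 level of the list lay -1.50 to -0.63 from the M8/M9 average in the M1 libraries, -0.17 to 0.35 in the M8/M9 libraries and -0.29 to 0.58 in the vehicle controls.

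Other genes among the largest negative differences had varied roles. SPX (ENSSSCG00000032123, chromosome 5, 51919474 to 51929204), which encodes the secreted peptide spexin, measured 3.64, 4.99, 1.696, 2.84 and 1.74 CPM against 12.8 to 49.8 CPM, median 24.7. Its log2 difference of -3.50 had a small error (SE 0.31). TUBB2B (ENSSSCG00000033655, chromosome 7, 1952705 to 1955780), a beta tubulin best known from developing neurons, measured 1.19, 11.9, 1.07, 2.17 and 7.33 CPM against 18.98 to 54.0 CPM, median 43.4. The difference was -3.09 (SE 0.63), and multidose 2 and single dose 1 were the highest of the M1 libraries. PRSS53, a serine protease, and ILDR2, a membrane protein of the immunoglobulin family, had non-overlapping ranges with differences of -2.95 (SE 0.51) and -2.95 (SE 0.50).

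Not every large difference was even across libraries. GABRG1 (ENSSSCG00000008809, chromosome 8, 36198056 to 36262492), a subunit of the GABA-A receptor, had the most negative fitted difference, -8.24 with an SE of 2.11. It held 0, 0, 1, 6 and 0 counts in multidose 1, 2, 3 and 4 and single dose 1, while the M8/M9 libraries ran from 0.0923 CPM in single dose 5 to 51.3 CPM in multidose 5. In all, 3 of those libraries lay under 1.5 CPM, so the sets were not cleanly separated, and the size of such a fitted value depends on the prior count. SLN, the sarcolipin inhibitor of the calcium pump, ranged from 0.595 to 6.78 CPM in M1 and from 3.37 to 42.5 CPM in M8/M9, with multidose 6 alone at the top. SCN3B, a sodium channel beta subunit, differed by -2.76 (SE 0.80), but multidose 2 and multidose 4, at 225.8 and 255.1 CPM, lay above the lowest M8/M9 library at 209.5 CPM. DOK5, an adaptor of receptor tyrosine kinases, differed by -3.48 (SE 0.81), with multidose 5 as low as the M1 libraries at 0.464 CPM.

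**Figure D2:**
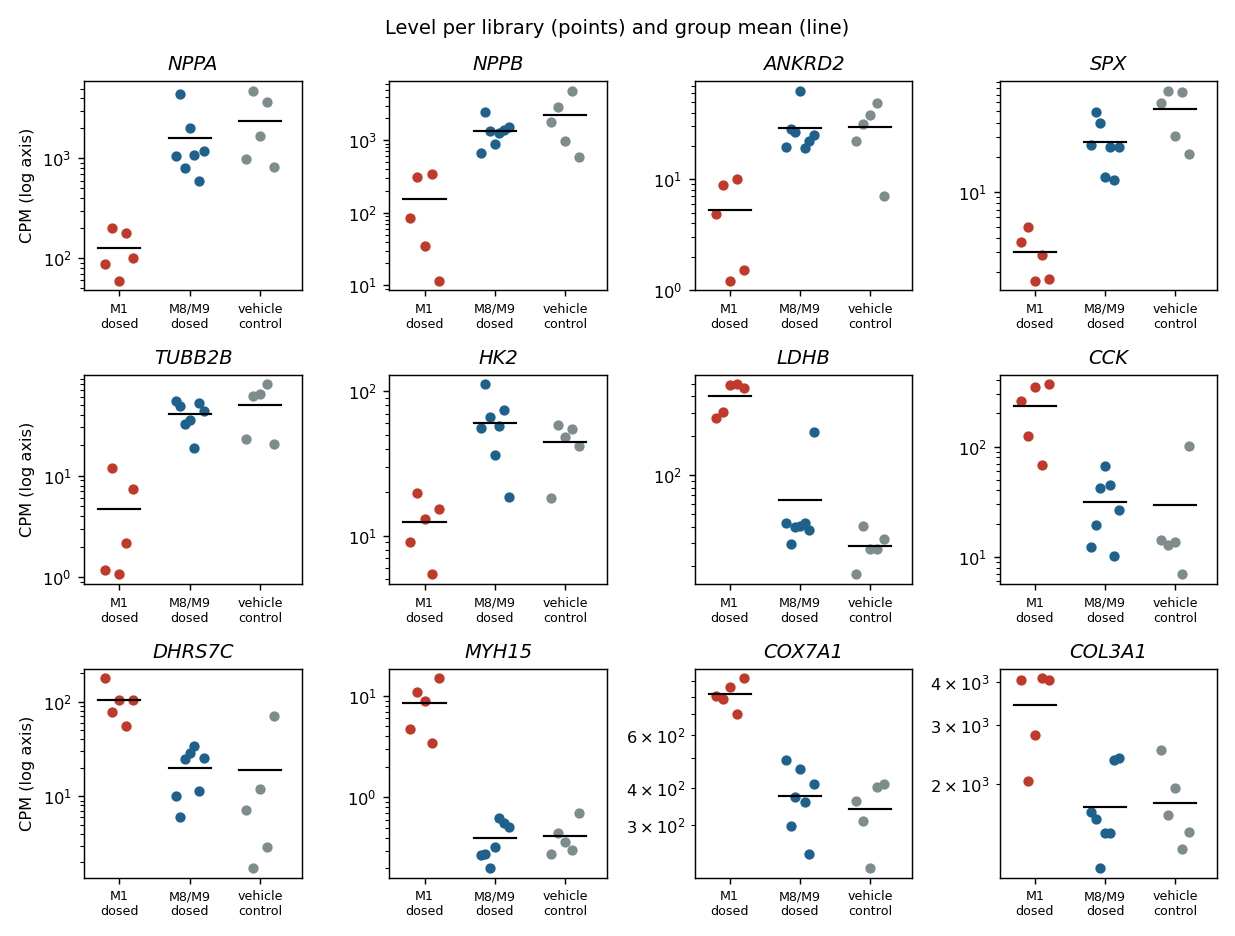
Level of 12 genes in CPM on log axes, with each library a point and the group mean a line, for M1 dosed (5), M8/M9 dosed (7) and vehicle control (5) libraries. NPPA in the M1 libraries lies between 59.6 and 200.3 CPM, below the lowest of the M8/M9 libraries at 592.8, whereas MYH15 lies between 3.44 and 15.0 CPM against at most 0.624.

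On the higher side, MYH15 (ENSSSCG00000022175, chromosome 13, 151008571 to 151156933), a myosin heavy chain gene, measured 4.70, 11.0, 8.92, 3.44 and 15.0 CPM in the M1 libraries and 0.201 to 0.624 CPM, median 0.328, in the others. The log2 difference was 4.84 (SE 0.32), 28.7-fold, and the vehicle controls, at 0.280 to 0.700 CPM, lay with the M8/M9 libraries. LDHB (ENSSSCG00000032557), the heart-type subunit of lactate dehydrogenase, measured 271.3, 303.0, 491.9, 494.6 and 467.6 CPM against 29.8 to 212.3 CPM, median 40.9. Its difference was 3.13 (SE 0.51), and single dose 5 supplied the highest M8/M9 value. CCK (ENSSSCG00000011277, chromosome 13, 25940674 to 25945879), which encodes the peptide cholecystokinin, measured 261.5, 123.7, 345.8, 68.5 and 366.6 CPM against 10.2 to 66.6 CPM, median 26.4 (3.12, SE 0.55). The lowest M1 library, multidose 4, and the highest M8/M9 library nearly met.

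DHRS7C (ENSSSCG00000017996, chromosome 12, 54647773 to 54661442), a short-chain dehydrogenase of the sarcoplasmic reticulum, measured 177.5, 77.2, 105.4, 55.5 and 103.5 CPM against 6.10 to 34.3 CPM, median 24.6. The ranges did not overlap (2.68, SE 0.46), although 1 vehicle control reached 71.3 CPM. LDHD, which oxidises D-lactate in mitochondria, and LNP1 also had non-overlapping ranges, with differences of 2.33 (SE 0.34) and 2.27 (SE 0.25). DYNLT5 (ENSSSCG00000031352), a dynein light chain of the Tctex type, measured 14.7 to 76.3 CPM in M1 and 0 to 8.39 CPM in M8/M9. Its fitted difference of 4.79 carried an SE of 1.33 because the M8/M9 libraries themselves ran from no counts to 336. KCNJ5, a subunit of the acetylcholine-gated potassium channel, was uneven within M1, from 2.05 CPM in multidose 4 to 102.5 CPM in multidose 1.

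Of the 36 lists, the cytoplasmic ribosomal proteins had the highest share of tested members past the threshold, 85.9%. All 64 tested genes of the cytoplasmic ribosome had a positive difference, 55 past the threshold and none lower, with a median of 0.68. RPL26 (ENSSSCG00000028850, chromosome 12, 53548313 to 53553453) measured 777.5, 580.5, 607.4, 551.7 and 656.1 CPM against 269.0 to 344.6 CPM (1.12, SE 0.12). RPL14 (1.07, SE 0.16) and RPL22 (1.03, SE 0.13) likewise had no overlap. Ribosomal protein genes took 4.08% to 5.10% of all counts in the M1 libraries, 2.54% to 3.20% in the M8/M9 libraries and 1.61% to 3.64% in the vehicle controls. Several of these genes have near-identical processed copies, so their counts may be split or shared. Of 45 mitochondrial ribosomal protein genes 12 were higher and 1, MRPL4 (-0.59, SE 0.13), was lower, with a median of 0.21. The 13 called became 3 without single dose 1, 8 without multidose 3, 8 without single dose 3 and 7 without multidose 6. Among the suffix _R libraries only, the median was 0.017, with 25 positive and 20 negative differences. Without the 4 smallest libraries it was -0.006, with 22 positive and 23 negative. Multidose 4 was the only M1 library in both of these fits.

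Nuclear genes of oxidative phosphorylation were mostly higher. Of 62 tested, 22 were higher past the threshold, 0 were lower and 57 had a positive difference, with a median of 0.35. The count was 6 without single dose 1, 14 without multidose 3 and 14 without multidose 6, with medians of 0.33, 0.34 and 0.31. COX7A1 (ENSSSCG00000037792, chromosome 6, 45519225 to 45520721), the heart and muscle subunit of cytochrome c oxidase, measured 805.7, 787.0, 864.4, 703.7 and 923.4 CPM against 241.5 to 492.5 CPM, median 371.0 (1.14, SE 0.17). NDUFB1 (0.91, SE 0.13) and NDUFB6 (0.75, SE 0.13), accessory subunits of complex I, also had no overlap. Of the 13 mitochondrially encoded genes, 10 had a positive difference and 0 passed the threshold, with a median of 0.09. That median followed single libraries, at 0.28 with 1 gene called without multidose 5 and -0.05 without single dose 1. ND1 and ND3, complex I subunits of the mitochondrial genome, had differences of 0.39 (SE 0.15) and 0.45 (SE 0.21).

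Genes of glucose and fatty acid use included large differences in both directions. Hexokinase 2 (HK2, ENSSSCG00000008261, chromosome 3, 68155656 to 68231187), which phosphorylates glucose, measured 9.02, 19.8, 13.0, 5.39 and 15.3 CPM against 18.5 to 112.0 CPM, median 57.7. The log2 difference was -2.34 (SE 0.44), and only multidose 2 reached the lowest M8/M9 library. HK1 differed by -0.59 (SE 0.13) with no overlap. Of the 19 glycolysis genes 4 were lower and 1, LDHB, was higher, and 12 had a negative difference (median -0.17). The 5 called became 3 without single dose 1 and 3 without multidose 6. PDK4 (ENSSSCG00000015334, chromosome 9, 75246956 to 75260134), the kinase that shuts pyruvate out of the citric acid cycle, measured 12.6, 17.3, 10.1, 18 and 17.03 CPM against 9.32 to 122.9 CPM, median 47.8 (-2.07, SE 0.48). Single dose 2 was below every M1 library for PDK4, and the vehicle controls ran from 42.7 to 608.3 CPM. Of 22 fatty acid oxidation genes 2 were higher and 2 lower, ACAA2 by 0.67 (SE 0.19) and CPT2 by -0.81 (SE 0.19) among them, which at 18.2% is close to the share over all genes. In this list 16 had a negative difference (median -0.23), and the 4 called became 2 without multidose 1, multidose 3 or multidose 6 and 1 without single dose 1.

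Of 19 myosin and thin filament genes 3 were higher and 0 lower, a share of 15.8%, near that over all genes. It was 1 gene without multidose 1, 2, 3, 6 or 7. Beside MYH15 these were TNNI3, cardiac troponin I (0.49, SE 0.15), and MYL2 (0.47, SE 0.13). MYH6, the fast alpha myosin, measured 377.3 to 1086 CPM in M1 and 584.6 to 1146 CPM in M8/M9 (-0.25, SE 0.31), and MYH7 differed by -0.46 (SE 0.19), neither past the threshold. Of 15 calcium handling and ion channel genes (26.7% called) 3 were lower, among them the potassium channel KCNH2 (-0.80, SE 0.14) and the calcium channel CACNA1C (-0.61, SE 0.14). TRDN, which anchors calsequestrin to the release channel, was higher (0.48, SE 0.10). In the atrial list of 10 genes the potassium channel KCNA5 was higher (1.09, SE 0.27) and SLN and STARD10 lower (30.0% called), but 0 passed without single dose 1 and 1 without multidose 6. Heat shock genes had 5 lower and 1 higher of 17, with HSPB1 at -0.89 (SE 0.21), BAG3 at -0.80 (SE 0.14) and HSPB8 at -0.79 (SE 0.13), and this became 2 lower without single dose 1 and 3 lower without multidose 6.

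**Figure D3:**
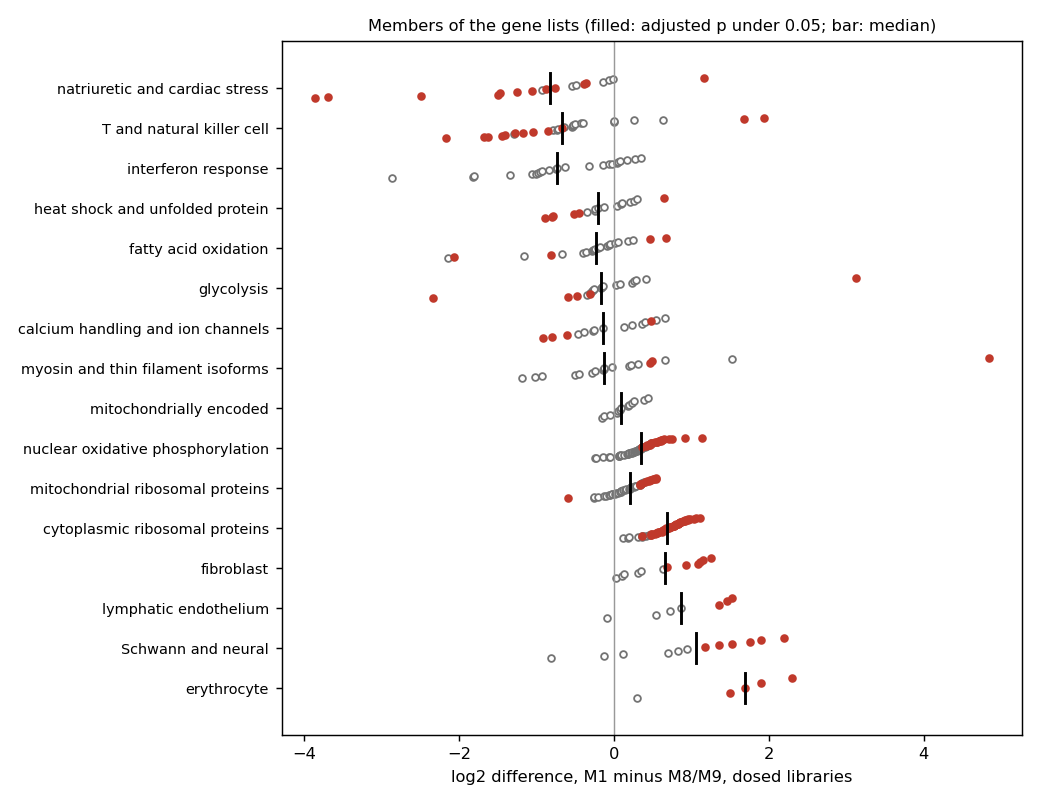
Log2 difference (M1 minus M8/M9, dosed libraries) of each tested member of 16 gene lists. Filled points pass an adjusted p of 0.05, open points do not, and bars mark medians, from -0.82 for the natriuretic and cardiac stress list to 1.69 for the erythrocyte list.

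Markers of some other cell types also moved with the names. Over all genes 17.4% passed the threshold. The share was 50% in the fibroblast and Schwann lists, 42.9% in the lymphatic, 44.4% in the T and natural killer cell, 80% in the erythrocyte and 30% in the adipocyte list. It was at most 15.4% in the mural, epicardial, vascular endothelial, macrophage, B cell, skeletal muscle and cartilage lists. In bulk tissue, more cells of a type cannot be told apart from more RNA per cell. Of 12 fibroblast markers 6 were higher and 0 lower, with a median of 0.66, and 3 were higher without single dose 1. A separate list of fibrillar collagens and fibroblast matrix had 6 higher and 1 lower of 24 (29.2% called). In it 5 genes had a negative difference, and the median was 0.42. Its member COL3A1 (ENSSSCG00000016034, chromosome 15, 93556914 to 93595678), the type III collagen chain, measured 4073, 2033, 2789, 4119 and 4080 CPM against 1123 to 2378 CPM, median 1577 (1.16, SE 0.22). PDGFRA, the platelet-derived growth factor receptor of fibroblasts, and DPT, the matrix protein dermatopontin, had no overlap, at 1.26 (SE 0.25) and 1.12 (SE 0.25). COL1A1, the chain of type I collagen, differed by 0.11 (SE 0.23) and did not pass. The fibroblast list lay 0.21 to 0.97 above the M8/M9 mean in M1, and -0.26 to 0.57 in M8/M9, so the sets overlapped in level.

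Of 12 Schwann and neural markers 6 were higher and 0 lower, with a median of 1.06. The list lay 0.42 to 0.98 above the M8/M9 mean in M1, and -0.52 to 0.60 from it in M8/M9. The vehicle controls ran from 0.17 to 0.74, so both sets overlapped the M1 libraries in level. CDH19, a Schwann cell cadherin, measured 5.38, 4.23, 3.05, 4.34 and 5.17 CPM against 0.723 to 3.40 CPM (1.89, SE 0.37). SCN7A, a sodium channel of glia, differed by 1.75 (SE 0.38). Of 7 lymphatic endothelial markers 3 were higher, the chemokine CCL21 (1.46, SE 0.39), MMRN1 (1.52, SE 0.48) and RELN (1.35, SE 0.34), while PROX1, the factor that specifies the lineage, differed by -0.09. The lymphatic list lay 0.48 to 1.62 above the M8/M9 mean in M1, -0.53 to 0.87 in M8/M9 and -0.45 to 0.55 in the vehicle controls. Single dose 5, at 82.6 CPM for CCL21 and 13.5 CPM for MMRN1, was inside the M1 ranges. Without multidose 5 or multidose 7, 1 lymphatic marker passed, and without multidose 6 none did (0). Vascular endothelium showed 1 of 15 higher, the angiopoietin receptor TEK (0.70, SE 0.20), and 0 without single dose 1, multidose 5 or multidose 6 and 2 without single dose 2 or multidose 7. PECAM1 measured 270.0, 272.5, 303.0, 384.2 and 279.2 CPM against 208.8 to 276.1 CPM, a difference of 0.34 (SE 0.13) that did not pass. VEGFA, the endothelial growth factor, differed by -0.40 (SE 0.21) and did not pass either.

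T and natural killer cell markers were lower in the M1 libraries, 10 of 27 against 2 higher, with a median of -0.68. Without single dose 1, 6 were lower and 0 higher. CD8B, a chain of the CD8 co-receptor, held 1, 6, 1, 10 and 5 counts in multidose 1, 2, 3 and 4 and single dose 1 and 24 to 57 counts in the M8/M9 libraries (-2.17, SE 0.46). CD3D and CD3E, chains of the T cell receptor complex, averaged 1.18 and 1.18 CPM against 2.69 and 3.35 CPM. GZMH, a granzyme, averaged 1.19 against 3.90 CPM, and the 2 members higher past the threshold, NCR1 and KLRB1, receptors of natural killer cells, averaged 0.6004 and 0.608 against 0.1997 and 0.167 CPM. The list lay -1.02 to -0.36 from the M8/M9 mean in M1, -0.25 to 0.34 in M8/M9 and -0.64 to 0.71 in the vehicle controls. CNN1, a smooth muscle calponin, was the largest of the mural cell markers at -2.18 (SE 0.50), and MCAM was the other of 13 to pass (-0.81, SE 0.16). That share, 15.4%, was near the 17.4% over all genes, and the median of the mural list was -0.13.

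Red cell transcripts were higher in 4 of 5 tested members, with HBB at 1.90 (SE 0.52), ALAS2, the erythroid haem synthesis enzyme, at 1.69 (SE 0.49) and AHSP, the alpha haemoglobin chaperone, at 2.30 (SE 0.71). The number called was 0 without multidose 5 or multidose 7, 1 without multidose 1, single dose 1 or single dose 3, and 2 without multidose 2 or multidose 3. Multidose 4 was the exception among the M1 libraries, with HBB at 95.0 CPM beside 233.8 to 623.9 CPM in the other 4. The list lay 0.41 above the M8/M9 mean in multidose 4 and 1.25 to 1.99 above it in the other M1 libraries, against -0.84 to 1.01 in M8/M9 and up to 2.13 in a vehicle control. Macrophage markers had 1 of 15 past the threshold, CCR2 (0.84, SE 0.22), 2 of 15 without multidose 2, and B cell and plasma cell markers had 0 of 6.

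**Figure D4:**
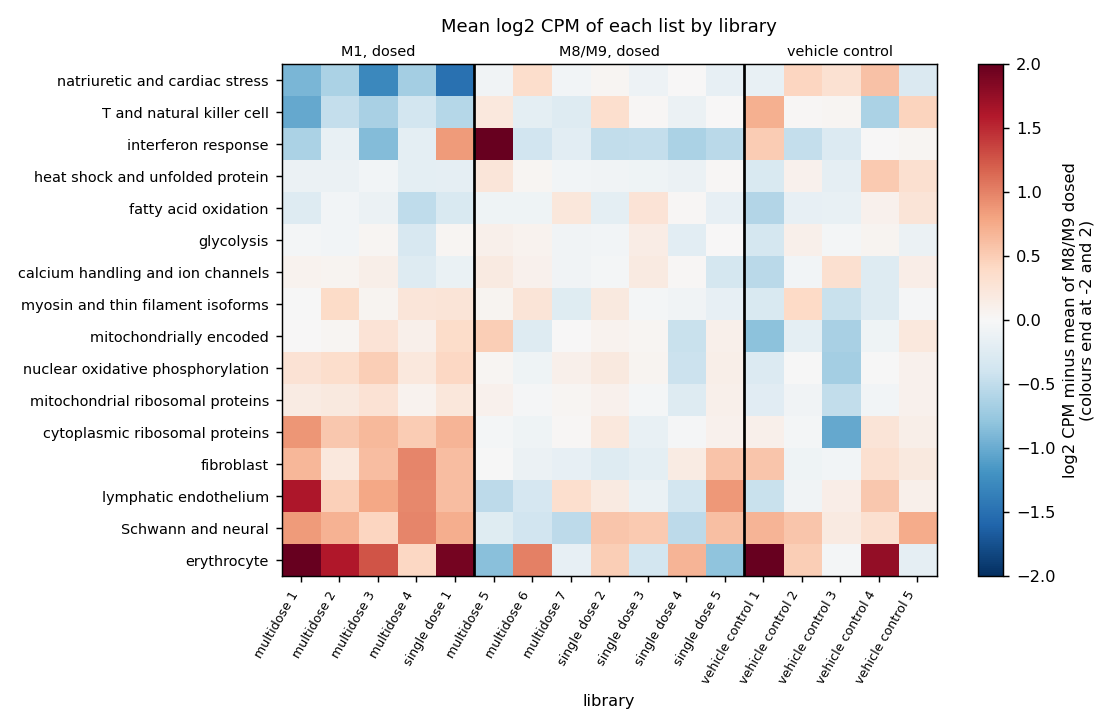
Mean log2 CPM of 16 gene lists in each of the 17 libraries, minus the mean of the M8/M9 dosed libraries, with colours ending at -2 and 2. The natriuretic row is at -0.63 or below in every M1 library and at -0.29 or above in every other library, and the interferon row is raised in multidose 5 at 2.74.

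Single libraries set some lists. No member of the interferon list of 23 genes passed, and its median of -0.74 followed multidose 5, whose level was 2.74 above the M8/M9 mean. Without that library the median was 0.65, 19 of 23 had a positive difference, and 4 were higher and 1 lower past the threshold. Within M1 the list level was uneven too, at 0.86 in single dose 1 and -0.88 to -0.14 in the multidose libraries. CXCL10, an interferon-induced chemokine, measured 537.6 CPM in multidose 5 and 16.1 to 31.5 CPM in the other M8/M9 libraries. Immediate early genes had 0 of 28 higher and 4 lower, among them the growth factor CCN2 (-1.48, SE 0.40) and FOSL1 (-2.07, SE 0.66). That share, 14.3%, was near the 17.4% over all genes. Of the 28, 15 had a positive difference, and the median was 0.03. Without multidose 5 only 1 was lower, and FOSL1, at 1.61 CPM in that library and at most 0.482 CPM in the other M8/M9 libraries, differed by -1.11. Without multidose 2 or multidose 4, 2 immediate early genes passed. Their level lay -0.38 to -0.27 from the M8/M9 mean in the 4 multidose M1 libraries and at 0.53 in single dose 1. Cell cycle genes had 0 of 26 past the threshold and clock genes 1 of 18, the repressor NR1D1 (-1.27, SE 0.34), which became 0 without single dose 1, 2 without multidose 4 and 3 without multidose 7. IGF1, insulin-like growth factor 1, was higher (1.26, SE 0.30), and IGF2BP2, an RNA-binding protein of growth, lower (-0.84, SE 0.15).

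Because name, depth and suffix overlap only in part, the differences were also taken in subsets of the libraries. With the suffix as a covariate the natriuretic median was -0.70, the ribosomal median 0.66 and the oxidative phosphorylation median 0.31. Among libraries with the suffix _R only, where multidose 4 is the single M1 library, they were -0.45, 0.59 and 0.21. Without the 4 smallest libraries, which again leaves multidose 4 alone in M1 and with a depth inside the M8/M9 range, they were -0.56, 0.52 and 0.18. In that last fit NPPA differed by -3.58, SPX by -3.77, LDHB by 3.71 and MYH15 by 3.76. Other genes among the largest differences shrank further from their values with all dosed libraries. CCK differed there by 1.45, LNP1 by 1.17, SCN3B by -1.45, PRSS53 by -1.60 and SLN by -1.60. With 1 library on that side, these values assume that it varies like the others, and few genes passed (8 and 3). In contrast, the erythrocyte median was -0.53 in the _R libraries and -0.17 without the 4 smallest, and KCNJ5 differed by -1.82 and -1.54. The median of the mitochondrial ribosomal proteins was 0.017 in the _R libraries and -0.006 without the 4 smallest. Thinning all libraries to 21754800 counts left 2665 genes past the threshold.

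**Figure D5:**
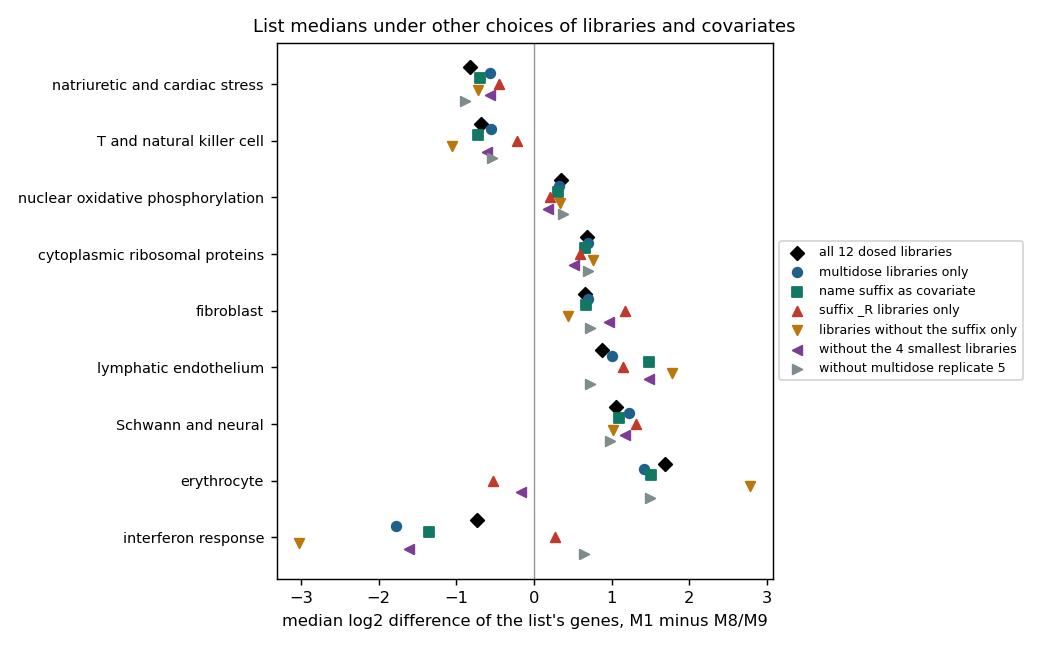
Median log2 difference (M1 minus M8/M9) of 9 gene lists with all 12 dosed libraries and under 6 other choices of libraries or covariates. The natriuretic, ribosomal, oxidative phosphorylation, fibroblast, lymphatic, Schwann and T cell medians keep their sign in all 7, while the erythrocyte and interferon medians do not.

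The dosing regimen could be tested because the names were not chosen on it. With the name as a covariate, 0 of 15923 genes (0%) differed between multidose and single dose in edgeR at an adjusted p of 0.05, 517 had an unadjusted p under 0.05, DESeq2 called 1 and limma-voom 0. The smallest p values belonged to SLC16A3, a lactate exporter (log2 multidose minus single dose 1.07, SE 0.24), IFRD1 (0.52, SE 0.12), FKBP5, a glucocorticoid-induced chaperone (0.75, SE 0.18), GPM6B, a neural membrane protein (-0.95, SE 0.24) and PTPRZ1 (-1.57, SE 0.41), each with an adjusted p of 0.9996 in edgeR. NPPA differed by 0.64 (SE 0.50), NPPB by 0.99 (SE 0.86) and MYH15 by -1.05 (SE 0.32) between the regimens. Without the name in the fit, 0 genes were called and 343 had an unadjusted p under 0.05.

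Whether the dosing difference varied with the name rests on single dose 1, the only M1 library of its group. The interaction called 0 genes (0%) in edgeR, with 535 at an unadjusted p under 0.05, 9 by DESeq2 and 3 by limma-voom. The smallest adjusted p values were 0.0688 for BTG2 (log2 interaction -2.21, SE 0.30) and ZFP36 (-1.18, SE 0.16), both early response genes that restrain growth and inflammatory messages, and 0.0906 for the transcription factor ETV1 (-1.56, SE 0.23). BTG2 measured 51.9 CPM in single dose 1 and 10.2 to 16.1 CPM in the other 11 libraries. NR4A1, an early response nuclear receptor, measured 130.4 CPM there and 15.3 to 41.9 CPM elsewhere (-2.43, SE 0.45, adjusted p = 0.402 by edgeR).

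The name suffix, given name and dosing group, called 0 genes (0%) in edgeR with 2285 at an unadjusted p under 0.05. DESeq2 called 498 and limma-voom 0. Without multidose 4, no M1 library has the suffix, so the term sets multidose 5 alone against the other M8/M9 libraries. EdgeR then called 633 genes, a contrast with 1 library on a side. CASTOR2 (-0.72, SE 0.11), WBP1 (-0.73, SE 0.11), PDGFC (-1.11, SE 0.17) and PLD2 (0.69, SE 0.11) had the smallest adjusted p, 0.0811 by edgeR, followed by ATL3 (0.60, SE 0.10, adjusted p = 0.0831). Suffix differences were 0.76 (SE 0.66) for NPPA, 1.81 (SE 0.81) for NPPB and -0.84 (SE 0.39) for MYH15, none past the threshold.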

How the data were processed

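Right ventricular RNA from 17 pigs was sequenced, and the 12 cell-dosed libraries were compared. Per the submitters' processing notes, FastQC 0.11.7, Trimmomatic 0.33, HISAT2 2.1.0, SAMtools 1.7, Subread 1.6.2 and the Sscrofa11.1 build were used. The authors deposited 1 table of raw counts per gene, and no label or header states the strand setting or the annotation release. Of 35670 genes, 18030 had no symbol and 119 of these were named from a reference table. Coordinates are RefSeq's for Sscrofa11.1.

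Genes were filtered with filterByExpr, scaled by TMM and fitted with edgeR 4.0.16 (R 4.3.3), quasi-likelihood, robust, with name and dosing group as terms and Benjamini-Hochberg adjustment over all 15923 genes. CPM use TMM-scaled library sizes, except the summed Y-linked level, which uses total counts. The log2 CPM for components and list levels use a prior count of 2. The replicate number names animals, and the labels do not say that it pairs them. Each p-value sets a difference against the spread between animals given the terms of the fit. For the name it only sorts genes, because the names were chosen on these data. The steps were tested on simulated counts. limma 3.58.1 and DESeq2 1.42.0 were alternatives. The other alternatives concerned scaling, filters, thinning, covariates, a fold threshold of 1.5, subsets of libraries and each library left out.

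The members and the 36 gene lists (759 members, 629 tested) were chosen with earlier results of these data known. Genes named are the 10 largest differences in each direction (symbol, mean of at least 5 CPM, same sign in multidose alone), 9 fixed genes, up to 3 per list, and the 5 smallest p of each other test. Genes named outside that rule were chosen after their values were seen. Some genes that the rule names are not reported here.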

Additional observations from a re-analysis of the deposited data

Results flagged for a closer look

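A library was marked here when it stood far from the nearest of the others of its set relative to the range of the set, a rule that chance meets in about 1 of 20 sets. Among the M8/M9 libraries, multidose 6 stood apart for NPPA (4410 CPM), ILDR2 (32.3 CPM) and SLN (42.5 CPM), and all 3 genes are lower in M1 with or without it. Its removal took NPPA from -3.86 to -3.09 on the log2 scale. Single dose 3 stood apart for DYNLT5 (8.39 CPM) and single dose 5 for LDHB (212 CPM), each being the M8/M9 library nearest to the M1 values.

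Multidose 4 stood apart within M1 for PECAM1 (384 CPM) and for its total of 40969168 counts, and multidose 5 within M8/M9 for the number of genes with counts, 18359, which lay inside the M1 range of 17965 to 19348.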

How the results depend on the processing

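The number of genes past the threshold for the name was 2777 and moved beyond 1.5 times under limma-voom (4373), multidose libraries only (723), suffix _R libraries only (8), a test against a fold of 1.5 (135) and, both chosen after seeing the data, libraries without the suffix only (1799) and all but the 4 smallest (3). It ran from 1399 (without single dose 1) to 2834 (without multidose 7) when 1 library was left out. DESeq2 gave 3682 and no low-count filter 2366. Upper-quartile scaling gave 1446 higher and 1333 lower. With the suffix as a covariate 2599 were called, 1765 of them shared. For the dosing regimen DESeq2 called 1, and leaving out each library called 0. For the interaction, no filter called 1, DESeq2 9, limma-voom 3 and leaving out 1 library 0 to 1, while the fit without single dose 1 gave no value. For the suffix DESeq2 called 498, and leaving out 1 library 0 to 633, the latter with multidose 5 alone on a side. Among named genes past the threshold, signs turned for KCNJ5 (-1.82 in _R only, -1.54 without the 4 smallest), AHSP (-0.62, -0.17), HBB (-0.51, -0.19), ALAS2 (-0.53, -0.13), STARD10 (0.036 in _R only) and DOK5 (0.66 without the suffix). Genes that had not passed also turned in some fits, for example VEGFA (0.28) and ND3 (-0.22) without the suffix. In the fit of libraries without the suffix, multidose 5 is the only M8/M9 library. In the _R fit and the fit without the 4 smallest, multidose 4 is the only M1 library. The cause of the sign changes was not tested. Correction for transcript length was not run. A genomic span was available for 75.7% of tested genes. In 5 sets of these genes by rising span, the median log2 differences were -0.027, -0.067, -0.001, 0.011 and 0.096. Genes lower in M1 outnumbered those higher in every set but the longest. The counts were 157 higher and 298 lower at 9480 to 20849 bp, and 263 higher and 193 lower at 93823 bp or more. The part of gene length in the differences was not tested.

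With the replicate number as a block, 1 gene passed for the name and 0 for the dosing regimen, and DOK5 (0.53), KCNA5 (-0.23) and IRX5 (0.27) turned sign. Only the numbers 2, 3 and 4 hold both names, each as an M1 multidose and an M8/M9 single dose library. The block also leaves few degrees of freedom for the spread, so its counts cannot be set beside those of the main fit. Residuals of animals with the same number correlated at -0.16, 0.18, -0.05, 0.12 and 0.05, so the numbers are not shown to pair animals.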
